A study of Mus musculus with 2 samples.

Results

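The genes described here are 9 complement components and regulators among the 19320 features of a single-cell RNA sequencing table from mouse prostate lesions. They are the C1 proteases C1ra, C1rb, C1s1 and C1s2, the components C4b, C3 and Cfb, and the regulators Cd55 and Clu. All 9 had a row in the table. They were chosen by gene family with earlier results of these data known, and selected on values that include the lower C1s2 and C1rb levels in luminal cells of one of the barcode sets defined below. Levels and ratios of the members are therefore a description and carry no test.

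The tissue came from R26 mTmG/hAR:Osr1 Cre/+ mice on a mixed C57BL/6 and 129S1/SvImJ background. In these mice the Osr1 promoter drives Cre, and recombination switches on a membrane green fluorescent protein (mGFP) and a transgenic human androgen receptor (hARtg) in Osr1-expressing cells and their descendants. The table names these features EGFP and ARQ. A library was made from prostatic intraepithelial neoplasia (PIN) and another from prostatic adenocarcinoma (PCa) of older mice, both of this genotype, so both lesions carry every allele and no transgene-free prostate is among them. The table joins the cells of 2 libraries under barcode endings, called barcode set 1 (6332 cells, median 17235 UMIs per cell) and barcode set 2 (9410 cells, median 14824.5). The labels do not say which ending is PIN and which is PCa, so no cell was assigned to a lesion. Library, lesion and age cannot be told apart between the sets, which shared 67 barcodes. With 1 library per set there are no replicates, and the 95% intervals below cover counting error only.

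Complement is a cascade of plasma proteins that tags surfaces for removal and can form pores in membranes. In the classical pathway C1q binds a target and carries the serine proteases C1r and C1s. C1r activates C1s, and C1s cleaves C4 and C2 into the convertase that splits C3. Factor B, the product of Cfb, forms the convertase of the alternative pathway. CD55, or decay-accelerating factor, speeds the breakdown of convertases on the cell's own membrane, and clusterin, the product of Clu, is a secreted chaperone that also holds back pore formation. The liver makes most complement of the plasma, while fibroblasts, macrophages and epithelia make parts of it locally. Clu is long known in the rodent prostate as a gene whose RNA rises when androgen is withdrawn.

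The mouse genome holds the C1r and C1s genes as neighbouring pairs. On RefSeq's GRCm38.p6, the assembly of the mm10 build that the submitters' processing notes name, the 4 genes span 123 kb of chromosome 6. They follow each other as C1ra at chr6:124512621-124523440, C1s1 at chr6:124530344-124542392, C1rb at chr6:124570430-124581044 and C1s2 at chr6:124624625-124636085. C4b, at chr17:34728139-34743902, and Cfb, at chr17:34856374-34862514, together span 134 kb, and C3 lies on the same chromosome at chr17:57203967-57228136. Cd55 lies at chr1:130429798-130465009 and Clu at chr14:65968483-65981548. A read that falls in a stretch shared by C1ra and C1rb, or by C1s1 and C1s2, cannot be placed on a single gene, and Cell Ranger leaves such reads out. The split within a pair is therefore less certain than the level of a gene with no close copy, and the same holds for C4b beside its copy C4a.

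The promoter windows of the 4 protease genes are printed because the luminal and the stromal cells differed in which gene of each pair their UMIs came from. Each window runs 5′ to 3′ on the gene's own strand from 250 bases before to 50 bases after the RefSeq start. They are C1ra at chr6:124512371-124512670 (plus strand), C1rb at chr6:124570180-124570479 (plus strand), C1s1 at chr6:124542310-124542609 (minus strand) and C1s2 at chr6:124636036-124636335 (minus strand). Capitals mark a STAT site in C1ra and C1rb and an androgen receptor half-site in C1s1.
C1ra: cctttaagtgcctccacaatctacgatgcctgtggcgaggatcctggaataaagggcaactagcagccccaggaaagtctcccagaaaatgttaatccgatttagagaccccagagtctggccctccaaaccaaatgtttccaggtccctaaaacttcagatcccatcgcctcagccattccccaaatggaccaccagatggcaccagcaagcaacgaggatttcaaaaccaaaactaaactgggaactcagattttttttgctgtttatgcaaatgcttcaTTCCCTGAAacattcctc
C1rb: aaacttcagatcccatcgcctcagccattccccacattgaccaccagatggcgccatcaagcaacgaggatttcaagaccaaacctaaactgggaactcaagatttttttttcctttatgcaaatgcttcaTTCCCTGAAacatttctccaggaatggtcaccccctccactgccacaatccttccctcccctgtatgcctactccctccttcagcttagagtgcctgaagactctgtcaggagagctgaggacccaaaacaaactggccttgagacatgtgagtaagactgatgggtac
C1s1: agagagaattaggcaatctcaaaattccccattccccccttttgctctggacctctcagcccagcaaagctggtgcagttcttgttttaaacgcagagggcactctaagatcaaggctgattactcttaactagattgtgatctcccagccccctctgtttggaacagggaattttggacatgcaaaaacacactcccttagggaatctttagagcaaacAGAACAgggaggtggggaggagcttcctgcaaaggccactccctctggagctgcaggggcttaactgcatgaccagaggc
C1s2: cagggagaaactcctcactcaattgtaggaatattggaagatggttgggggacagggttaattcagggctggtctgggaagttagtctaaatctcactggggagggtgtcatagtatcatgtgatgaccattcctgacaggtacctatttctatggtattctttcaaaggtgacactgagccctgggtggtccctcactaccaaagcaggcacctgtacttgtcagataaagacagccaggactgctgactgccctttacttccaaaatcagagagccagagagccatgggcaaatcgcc

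Bases 152 to 300 of the C1ra window and bases 1 to 149 of the C1rb window were near-copies, with 139 of 148 aligned bases identical (93.9%). The STAT site lay in this shared stretch, 32 bases after the C1ra start and 119 bases before the C1rb start. The windows of C1s1 and C1s2 shared no comparable stretch, and their best local alignment was 11 bases long. Windows existed for 6 of the 9 members in the RefSeq table. On both strands, the STAT site TTCNNNGAA matched in C1ra and C1rb alone among them and in 8.30% of 32851 windows of all genes. The half-site AGAACA matched in C1s1 alone among them and in 19.0% of all windows. The full androgen response element, which is AGAACA and TGTTCT with 3 letters between, matched in no member and in 3 windows of all genes. The interferon-stimulated response element core, GAAA repeated after 2 letters, matched in no member and in 3.44% of all windows. These are matches of letters, not shown sites.

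Cells were placed in classes by clustering without the complement genes, EGFP and ARQ, and named from fixed markers. Luminal-like cells made up 1063 of 6177 cells of set 1 (17.2%) and 5725 of 9235 cells of set 2 (62.0%) after likely doublets were left out. The luminal-like cells of set 2 showed 5 of 7 luminal markers in 25% or more of cells, against 7 of 7 in set 1. Proximal luminal-like cells numbered 1742 and 277, basal-like cells 1688 and 360, and fibroblast-like cells 197 and 360. Epithelial cluster 1, led by Svs5, Svs3a, Svs3b, Svs4 and Pate4, numbered 273 and 1954. It met the marker rule for seminal vesicle through set 2, but in set 1 none of its 5 markers reached 25% of cells, so it is called by its number. Smooth muscle-like cells (89) and endothelial-like cells (170) were enough to measure in set 2. Leukocyte-like cells numbered 1114 and 280. Macrophage-like cells were 3 in set 1 and 111 in set 2, so no comparison of sets was made for them, and the unnamed leukocyte-like cluster 1, led by Ccl22, Retnla, Mgl2 and H2-Eb1, numbered 90 and 122. Epithelial RNA was also counted outside the epithelium, and leukocyte-like cells held the epithelial keratin Krt8 at 307 CPM in set 1 and 875 CPM in set 2, against 4617 and 8245 CPM in luminal-like cells.

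The 9 genes fell into 3 groups by the class in which they were highest, as the plot of levels by class shows. C1rb and C1s2 were highest in luminal-like cells in both sets. C1ra, C1s1, C4b and C3 were highest in fibroblast-like cells in both sets, and Cfb in set 1. Cd55 and Clu were highest in proximal luminal-like cells in both sets. Levels are a gene's UMIs in a class divided by all UMIs of that class, on the usual CPM scale, and are compared between classes for a single gene.

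**Figure D1:**
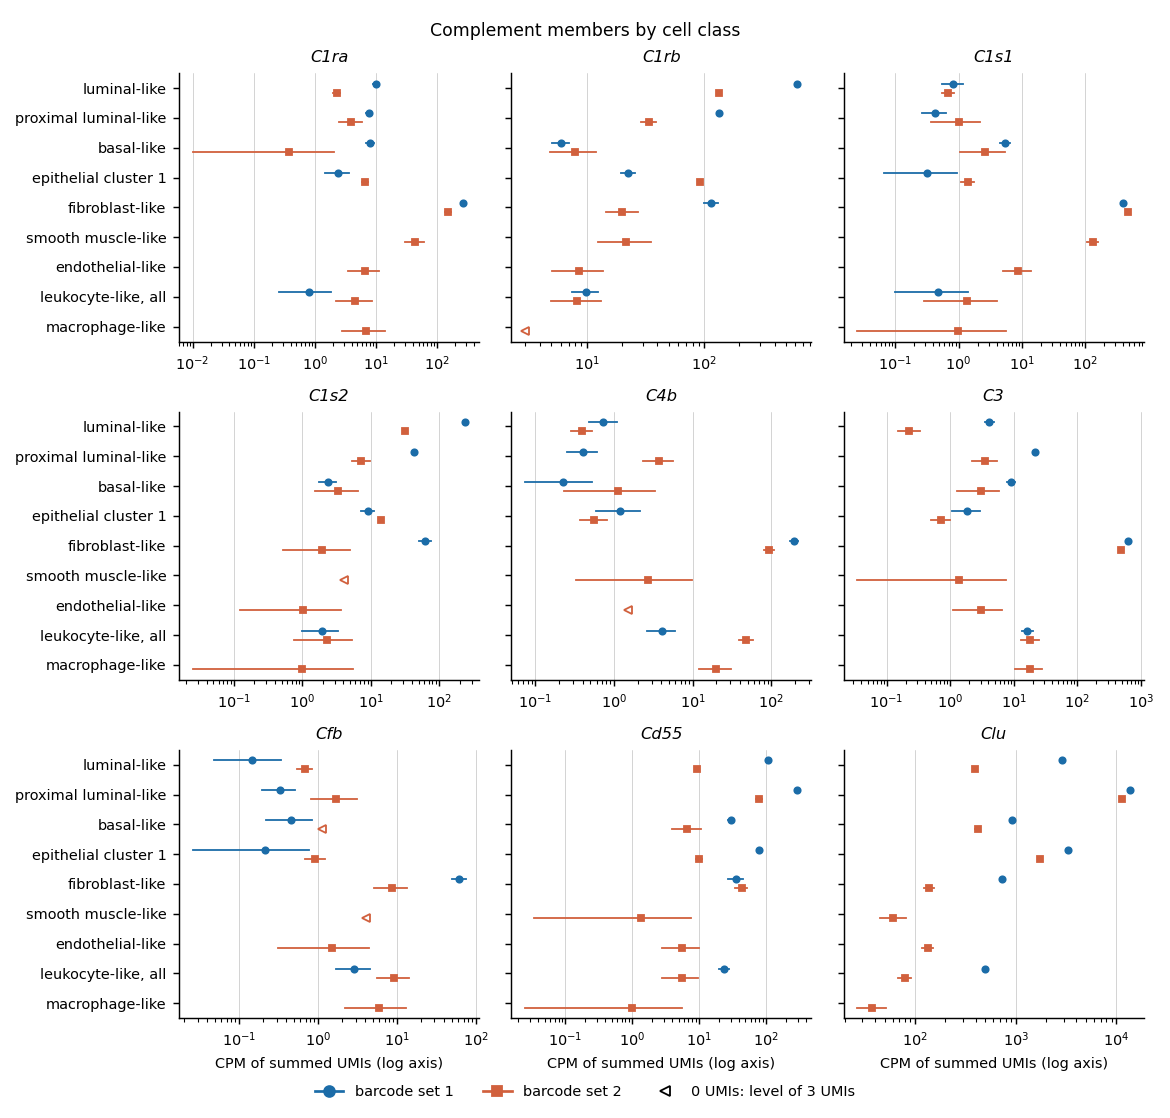
CPM of summed UMIs (log axis) of each of the 9 members in the cell classes of barcode set 1 (circles) and barcode set 2 (squares), for groups of 50 cells or more. Lines are exact Poisson 95% intervals and open triangles stand at the level of 3 UMIs where none was counted. C1rb and C1s2 stand highest in luminal-like cells, C1ra, C1s1, C4b and C3 in fibroblast-like cells, and Cd55 and Clu in proximal luminal-like cells.

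C1rb, a C1r protease gene, stood at 620.4 CPM (612 to 629) in luminal-like cells of set 1 and at 134 CPM (132 to 137) in those of set 2. C1s2, a C1s protease gene, stood at 238 CPM (233 to 243) and 31.6 CPM (30.6 to 32.7). Most of these UMIs came from a single luminal cluster, epithelial cluster 5, led by 9530053A07Rik, Ren1, 9530003J23Rik, Gm37223 and Gm5615. Cluster 5 held 591 cells of set 1 and 275 cells of set 2. There C1rb reached 1288 CPM in set 1 and 1434 CPM in set 2, and C1s2 reached 493 CPM (483 to 504) and 427 CPM (411 to 443). The sets were thus close to each other within this cluster and far apart over all luminal-like cells.

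Cluster 5 was 9.57% of the cells of set 1 and held 69.3% of the set's C1rb UMIs and 72.3% of its C1s2 UMIs. In set 2 it was 2.98% of cells and held 46.0% and 63.3%. C1rb was seen in 94.4% of cluster 5 cells of set 1 and 95.6% of those of set 2, at median depths of 25435 and 23138 UMIs. Leukocyte-like cells, which serve as the background of free RNA, showed C1rb in 2.51% and 2.50% of cells at median depths of 3815.5 and 7022.5 UMIs. After every cell was thinned to 3000 UMIs the shares were 86.1% and 89.5% in cluster 5, against 1.66% and 1.60% in leukocyte-like cells. C1s2 was seen in 66.3% and 67.4% of thinned cluster 5 cells. Both genes were seen together in 522 of the 591 cells of set 1, of which 558 showed C1rb and 529 showed C1s2, and in 251 of the 275 cells of set 2. The highest 60 of the 591 cells held 23.5% of the C1rb UMIs, so the level was spread over the cluster and not set by a few cells.

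Outside cluster 5 both genes were far lower. In set 1 the next was epithelial cluster 9, a small unnamed cluster (55 cells) led by the immune genes Rgs1, Jchain, Ccl4, Ccl5 and Tnfrsf9, with C1rb at 334 CPM (308 to 361) and C1s2 at 117 CPM (102 to 133). C1rb was seen in 30.9% of its cells, and the highest 6 cells held 64.5% of its C1rb UMIs. Its median depth was 31978 UMIs, against 3815.5 in leukocyte-like cells of set 1, and the part of remaining doublets was not tested. Cluster 9 was followed by the proximal luminal cluster 4, with Srpx, Rnase1, Svs3b and Cyp1a1 among its leading genes. There C1rb stood at 189 CPM (184 to 193) and C1s2 at 59.6 CPM (57.1 to 62.1). Luminal cluster 6, led by Spink1, Sbpl, Wfdc3, Gm12888 and Msmb, held C1rb at 31.4 CPM in set 1 and 3.52 CPM in set 2. The 2 clusters that made up most luminal-like cells of set 2 were cluster 0, led by Mt4, Gulo, Mgp, Iqub and Gsta3 (3175 cells), and cluster 2, led by Tgm3, S100a8, Fam25c, Cxcl14 and Defa21 (2168 cells). There C1rb stood at 66.0 CPM (64.0 to 68.0) and 45.9 CPM (44.0 to 47.9), and C1s2 at 8.91 CPM (8.19 to 9.68) and 6.81 CPM (6.08 to 7.60). Both genes in these clusters lay above the leukocyte-like cells of the set, at 8.31 CPM for C1rb and 2.31 CPM for C1s2. The thinned share of cells with C1rb was 13.7% in cluster 0 and 8.93% in cluster 2. Cluster 1 of set 2 held C1rb at 92.8 CPM and C1s2 at 14.3 CPM.

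**Figure D2:**
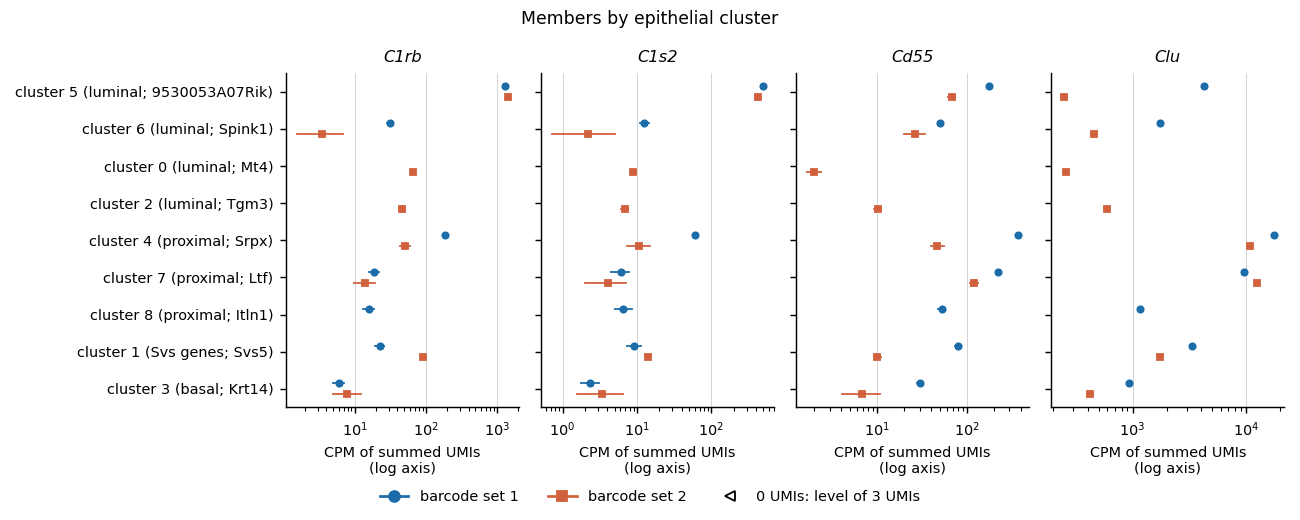
CPM of summed UMIs (log axis) of C1rb, C1s2, Cd55 and Clu in the epithelial clusters of barcode set 1 (circles) and barcode set 2 (squares), with exact Poisson 95% intervals, for named clusters and cluster 1 where a set held 50 cells or more. Each cluster is followed by its class and its first leading gene. Cluster 5 stands highest for C1rb and C1s2 in both sets, and clusters 4 and 7 stand highest for Cd55 and Clu in set 1.

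The number of C1rb UMIs per C1s2 UMI also varied between clusters. It was 2.61 in cluster 5 of set 1 and 3.36 in cluster 5 of set 2, and lay between 2.39 and 3.17 in the other epithelial clusters of set 1. It was 7.40 in cluster 0, 6.51 in cluster 1 and 6.75 in cluster 2 of set 2. In these last clusters C1s2 was low while C1rb was still counted in 1083 of 3175, 947 of 1954 and 651 of 2168 cells.

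Luminal and stromal cells differed in the gene of each pair that their UMIs came from. In luminal-like cells C1rb made up 98.4% of the UMIs of C1rb and C1ra in set 1 and 98.3% in set 2. In fibroblast-like cells it made up 29.9% (26.5 to 33.5) and 11.6% (8.47 to 15.3). Likewise C1s2 made up 99.7% and 97.9% of the UMIs of C1s2 and C1s1 in luminal-like cells, against 13.7% (11.4 to 16.2) and 0.398% (0.108 to 1.01) in fibroblast-like cells. Basal-like cells of set 1 lay between, with 43.1% (37.5 to 48.9) for C1rb and 30.6% (23.8 to 38.1) for C1s2. Those of set 2 rested on few UMIs, with 95.5% (77.2 to 99.9) for C1rb, near the luminal share, and 56.2% (29.9 to 80.2) for C1s2. In smooth muscle-like cells of set 2 all 97 UMIs of the C1s pair came from C1s1. Intervals here are exact binomial ones.

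**Figure D3:**
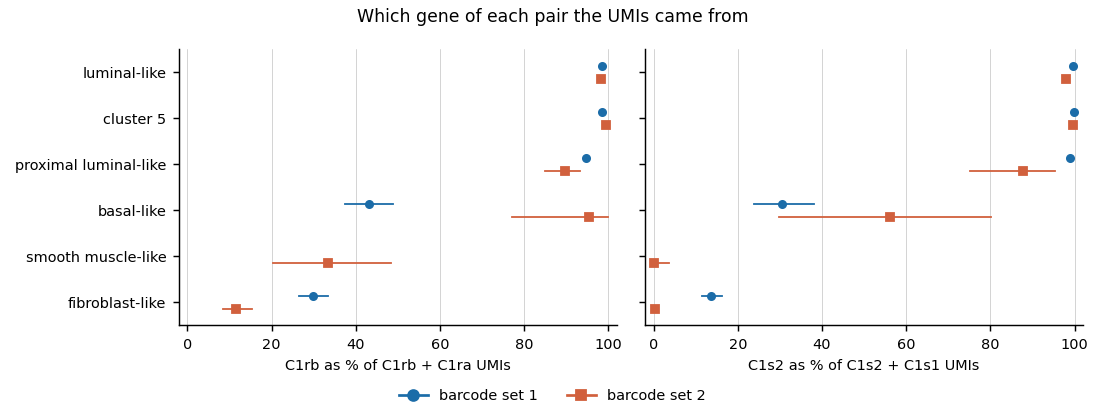
Share of UMIs (in %) that came from C1rb out of C1rb and C1ra (left) and from C1s2 out of C1s2 and C1s1 (right), by class or cluster, in barcode set 1 (circles) and barcode set 2 (squares), with exact binomial 95% intervals. Luminal-like cells stand near the right edge in both panels, and fibroblast-like cells stand at 29.9% and 11.6% on the left and at 13.7% and 0.398% on the right.

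C1s1 and C1ra, the other protease gene of each pair, were stromal. C1s1 stood at 396 CPM (367 to 426) in fibroblast-like cells of set 1 and at 480.4 CPM (451 to 511) in those of set 2, with 132 CPM (107 to 161) in smooth muscle-like cells of set 2. Luminal-like cells held it at 0.823 and 0.685 CPM and leukocyte-like cells at 0.482 CPM (0.0993 to 1.41) and 1.39 CPM (0.286 to 4.05), and these intervals contain the luminal values. Fibroblast-like cells were 3.19% and 3.90% of cells and held 78.9% and 78.2% of all C1s1 UMIs. C1ra stood at 269 CPM (245 to 294) and 154 CPM (138 to 172) in fibroblast-like cells, which held 32.6% and 32.5% of its UMIs. The rest of C1ra was spread thinly over epithelium, with 19.1 CPM (17.1 to 21.4) and 10.0 CPM (7.75 to 12.7) in cluster 5, above the leukocyte-like cells at 0.803 and 4.62 CPM.

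C1rb and C1s2 in fibroblast-like cells differed between sets. C1rb stood at 115 CPM (99.4 to 132) in set 1 and at 20.1 CPM (14.5 to 27.2) in set 2, and C1s2 at 62.7 CPM (51.6 to 75.5) and 1.92 CPM (0.523 to 4.91). In set 1 they were seen in 93 and 67 of 197 cells, and the leukocyte-like level was 9.79 CPM for C1rb and 1.93 CPM for C1s2. Krt8 in the same fibroblast-like cells was 560.6 CPM in set 1 and 2008 CPM in set 2. After thinning, C1rb was seen in 27.2% of fibroblast-like cells of set 1 and in 1.67% of those of set 2, the latter close to the 1.60% of leukocyte-like cells. The part of epithelial RNA in these levels was not tested. EGFP was 27.1 CPM in fibroblast-like cells of set 1, below the leukocyte-like level of 72.1 CPM, and 2504 CPM in the same class of set 2, against a leukocyte-like level of 1020 CPM.

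C4b, C3 and Cfb, which encode the proteins that the proteases and convertases act through, reached their highest levels in fibroblast-like cells of set 1. C3 stood at 640.2 CPM (603 to 679) in fibroblast-like cells of set 1 and at 497 CPM (467 to 528) in those of set 2. Proximal luminal-like cells held C3 at 21.6 CPM (20.4 to 22.9) and 3.54 CPM (2.19 to 5.42), while leukocyte-like cluster 1 came second in both sets, at 70.3 CPM (56.8 to 86.0) and 21.2 CPM (13.1 to 32.5), and macrophage-like cells of set 2 held 17.8 CPM. Since proximal luminal-like cells were many in set 1, they held 1187 of its 2823 C3 UMIs and fibroblast-like cells 1134, whereas fibroblast-like cells held 1037 of 1178 in set 2. C4b stood at 195 CPM (175 to 216) and 93.0 CPM (80.4 to 107) in fibroblast-like cells. Leukocyte-like cluster 1 came next, at 14.2 CPM (8.55 to 22.2) in set 1 and 84.9 CPM (67.7 to 105) in set 2, so in set 2 the interval for C4b overlapped that of fibroblast-like cells. Cfb stood at 61.5 CPM (50.5 to 74.2) in fibroblast-like cells of set 1 and at 8.63 CPM (5.11 to 13.6) in those of set 2. In set 2 leukocyte-like cluster 1 was higher for Cfb, at 14.2 CPM (7.74 to 23.7), and these intervals overlapped. Fibroblast-like cells held 109 of the 165 Cfb UMIs of set 1 and 18 of the 177 of set 2, where luminal-like cells, being many, held 81 at 0.685 CPM. When every cell weighed the same, Cfb was highest in fibroblast-like cells of set 2 as well.

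Not all fibroblast-like cells held C3 and C4b. The 20 cells with the most C3 UMIs, of 197 in set 1, held 62.0% of its UMIs, and the 36 highest of 360 in set 2 held 67.3%. For C4b these shares were 60.6% and 84.0%. C1s1 was more even, with 30.5% and 35.9%. In fibroblast-like cells thinned to 3000 UMIs, C4b was seen in 40.0% (28.9 to 52.0) of the 75 cells with C3 and in 19.3% (12.3 to 27.9) of the 109 cells without it in set 1. In set 2 it was seen in 40.5% (29.9 to 51.7) of 84 cells with C3 and in 3.26% (1.32 to 6.59) of 215 cells without it. C1s1 was seen in 77.3% of cells with C3 and 54.1% of cells without it in set 1, and in 69.0% and 70.7% in set 2. Thus C4b was seen in a larger share of cells with C3 than of cells without it in both sets, and for C1s1 this held in set 1 alone.

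Cd55 and Clu, the regulators, were highest in proximal luminal-like cells. Cd55 stood at 298 CPM (294 to 303) there in set 1 and at 80.0 CPM (73.0 to 87.5) in set 2. In set 1 cluster 4 was highest at 375 CPM, followed by proximal luminal cluster 7, led by Ltf, Cxcl5, Gsdmc2, Jchain and Hbb-bs, at 226 CPM (216 to 236) and luminal cluster 5 at 178 CPM (172 to 185). Proximal luminal cluster 8, led by Itln1, Cxcl17, Serpinb11, Spink1 and Sbp, was not high. It made up 277 of the 1742 proximal luminal-like cells of set 1. Of the UMIs of that class it held 471 of 16387 for Cd55 and 10512 of 752391 for Clu. In set 2 cluster 7 was highest at 121 CPM (108 to 134), and cluster 5 (67.9 CPM) lay above cluster 4 (47.0 CPM). Luminal-like cells as a whole held Cd55 at 109.9 CPM in set 1 and 9.38 CPM in set 2, and cluster 0 of set 2 was the lowest epithelial cluster at 1.97 CPM (1.64 to 2.35). That level is below the leukocyte-like cells of the set, at 5.54 CPM (2.86 to 9.68). Fibroblast-like cells held Cd55 at 35.6 CPM in set 1 and 43.6 CPM (35.1 to 53.6) in set 2. In set 2 they were the second highest of the measured classes, so Cd55 was not confined to epithelium.

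In proximal luminal-like cells Clu reached 13702 CPM (set 1) and 11380 CPM (set 2). It was seen in 99.9% of cluster 4 cells of set 1 after thinning. Cluster 4 reached 17664 CPM in set 1 and 10937 CPM in set 2, and cluster 7 reached 9620 and 12560 CPM, so the order of the 2 clusters turned between sets. Luminal-like cells held Clu at 2909 CPM in set 1 and 393 CPM in set 2. In cluster 5 the level was 4261 CPM in set 1 and 249 CPM in set 2, and 60 of the 591 cells of set 1 held 47.5% of the UMIs. Clu was also counted in leukocyte-like cells, at 500.0 CPM in set 1 and 79.4 CPM in set 2. In set 1 leukocyte-like cluster 1, with 90 of the 1114 cells, held 2174 of the 3114 UMIs, and a single cell 932. The other leukocyte-like clusters of 50 cells or more in set 1, T cell-like cells included, lay between 167 and 219 CPM. T cell-like cells showed Clu in 55.4% of cells. Clu in fibroblast-like cells (736 and 138 CPM) was seen in 44.6% and 20.7% of thinned cells, against 42.5% and 17.2% of leukocyte-like cells, and was not read as expression. In set 1, 20 of the 197 fibroblast-like cells held 86.4% of these UMIs.

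The rest of the pathway was taken from a list of 57 complement genes, of which 48 were in the table. In set 1, 28 list genes reached 10 CPM in a class and 12 of them were highest in fibroblast-like cells. In set 2, 30 reached it and 9 of them were highest in fibroblast-like cells. No share over all genes was set beside these counts, so they are not read as a lean of the pathway toward fibroblast-like cells. The C1 inhibitor gene Serping1, whose product blocks C1r and C1s, reached 2767 and 1853 CPM in the fibroblast-like class, against 5.11 and 2.03 CPM in luminal-like cells. C2, the substrate of C1s beside C4, stood at 228 and 91.6 CPM in fibroblast-like cells. The C1q genes, whose product carries the proteases, were highest in myeloid cells, with C1qa at 1190 CPM in leukocyte-like cluster 1 of set 1 and 8862 CPM in macrophage-like cells of set 2. Macrophage-like cells of set 2 held C4b at 19.8 CPM (12.1 to 30.6), while C1s1 was counted once, C1s2 once and C1rb never among 111 cells, which allows C1rb up to 2.97 CPM.

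Cells were then split by EGFP, which marks the recombined lineage that also carries the transgene. A cell was EGFP-high when its share of EGFP UMIs was at least 4 times the leukocyte-like level of its set, and EGFP-low when it was under 2 times that level. The transgene ARQ followed the split, with 547 against 27.0 CPM among set 1 luminal-like cells and 1579 against 285 CPM among set 2 ones. Genes with 10 CPM or more on either side were compared, and a 2-fold difference was counted as a call. A gene that reached 10 CPM on 1 side alone was thus compared too. In luminal-like cells of set 1 (161 EGFP-high, 882 EGFP-low), 4 of the 5 members compared were lower in EGFP-high cells, where 1.54% of all genes compared were lower by 2-fold and 3.60% higher. C1rb was 294 against 689 CPM (log2 ratio −1.23, interval −1.30 to −1.16) and C1s2 was 108 against 266 CPM (−1.30, interval −1.42 to −1.18). Cd55 (−1.11) and C1ra (−1.02) were the others, and Clu stood at −0.85. In luminal-like cells of set 2 (5319 EGFP-high, 256 EGFP-low), 3 of the 4 members compared were lower, where 15.9% of all genes were lower and 12.1% higher. C1rb was 73.3 against 1251 CPM (−4.09, interval −4.14 to −4.05), C1s2 was 11.8 against 389 CPM (−5.04, interval −5.14 to −4.94) and Cd55 was 6.23 against 62.3 CPM (−3.32). Clu stood at 0.79, the opposite sign to set 1. Of the rest of the list, Serping1 (1.33) and Cd59a (3.44), which encodes an inhibitor of pore formation, were higher in EGFP-high cells of set 1, and C2 (2.14) in those of set 2.

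The 2 sides of these splits were made of different clusters. In set 1, 543 of the 882 EGFP-low luminal-like cells were in cluster 5 and 96 of the 161 EGFP-high cells in cluster 6. In set 2, 191 of the 256 EGFP-low cells were in cluster 5 and 3104 of the 5319 EGFP-high cells in cluster 0 and 2128 in cluster 2. Median depth also differed, at 35269 UMIs in EGFP-high against 28054.5 in EGFP-low cells of set 1 and 15475 against 20217 in set 2, and its part was not tested. Within cluster 5, none of the 5 members compared differed by 2-fold in either set. In set 1 (35 EGFP-high, 543 EGFP-low cells) C1rb was 1540 against 1272 CPM (0.27, interval 0.20 to 0.35) and C1s2 550.4 against 492 CPM (0.16), where 1.47% of all genes were lower and 1.27% higher. In set 2 (54 and 191 cells) C1rb was 1246 against 1574 CPM (−0.34, interval −0.41 to −0.26) and C1s2 295 against 489 CPM (−0.73), where 1.36% were lower and 3.49% higher. Single clusters were compared with 30 cells or more on either side, a limit chosen after the data were seen. The lower level in EGFP-high luminal-like cells of set 1 also depended on the clustering: without integration of the sets C1rb stood at 0.072, C1s2 at 0.071 and Cd55 at 0.15. After thinning to 3000 UMIs no member reached 2-fold in luminal-like cells of set 1, where 4.41% of all genes were lower and 4.93% higher. The EGFP split was redrawn from the thinned counts there, with few EGFP UMIs left per cell, so its sides need not hold the same cells. Depth and the coarser split cannot be told apart in this loss of calls.

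**Figure D4:**
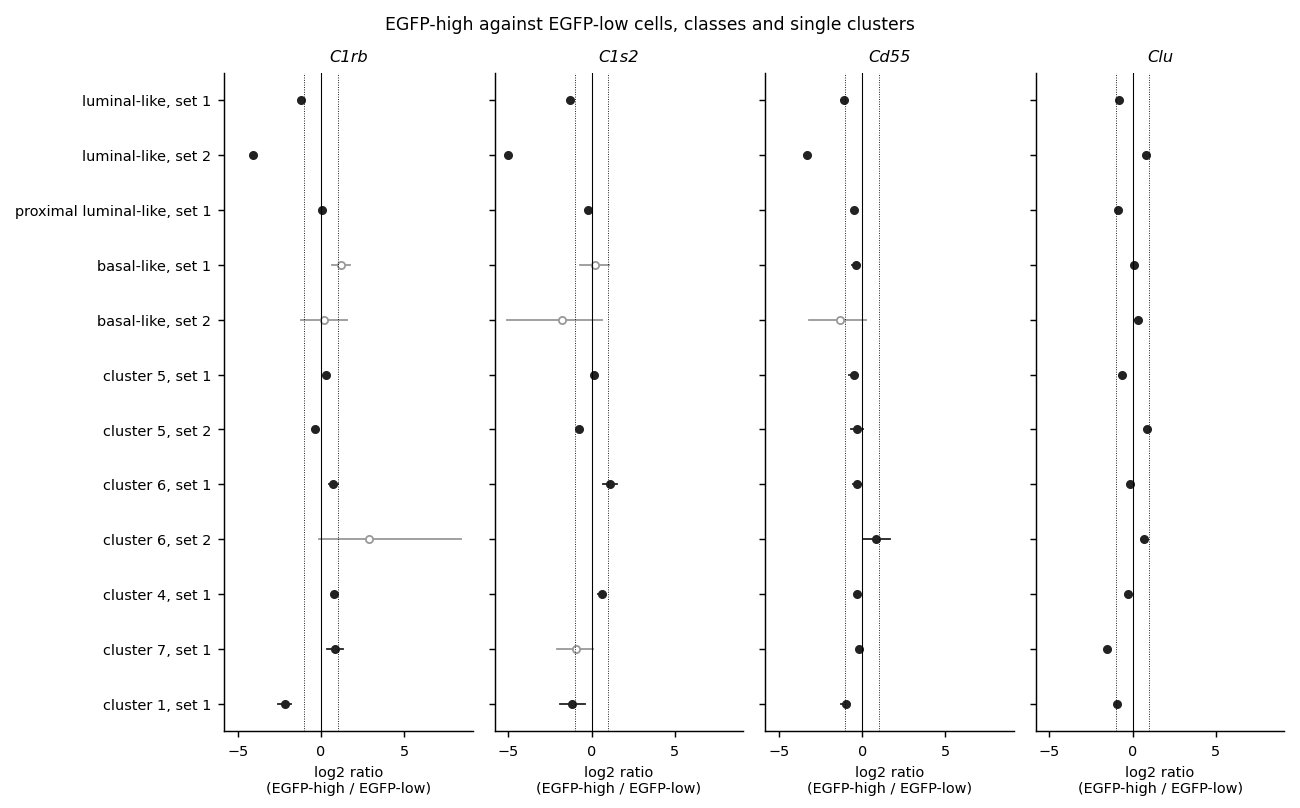
Log2 ratio of CPM in EGFP-high over EGFP-low cells for C1rb, C1s2, Cd55 and Clu, by class and within single epithelial clusters, with conditional binomial 95% intervals. Dotted lines mark 2-fold, and open grey points lie under 10 CPM on both sides. C1rb and C1s2 stand far to the left in luminal-like cells of barcode set 2 and near 0 within cluster 5 of both sets.

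Other single clusters gave no common direction for C1rb and C1s2. In cluster 6 of set 1 (96 EGFP-high, 335 EGFP-low cells) C1s2 was 21.4 against 10.0 CPM (1.09, interval 0.66 to 1.51), where 2.73% of all genes were higher, and C1rb 45.5 against 27.4 CPM (0.73). In epithelial cluster 1 of set 1 (227 and 45 cells) C1rb was 15.2 against 69.3 CPM (−2.19, interval −2.60 to −1.77) and C1s2 7.79 against 17.7 CPM (−1.18, interval −1.91 to −0.41), where 3.31% of all genes were lower. EGFP-high cells thus held more of both genes in cluster 6 and less of both in cluster 1. Few cells carried these values, since the highest 44 of 438 cells of cluster 6 held 93.3% of its C1rb UMIs and the highest 28 of 273 cells of cluster 1 held 95.7%.

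In proximal luminal-like cells of set 1 (172 EGFP-high, 1536 EGFP-low) C1rb was 140.0 against 134 CPM (0.06, interval −0.05 to 0.16) and C1s2 was 37.9 against 43.4 CPM (−0.19, interval −0.39 to 0.00). Serping1 stood at 2.58. C3 was 5.63 against 23.7 CPM (−2.08, interval −2.61 to −1.59) and was the 1 member of 5 called, where 0.539% of all genes were lower and 1.87% higher. Clu (8029 against 14504 CPM, −0.85) and Cd55 (−0.46) were lower by less than 2-fold. The 2 sides were made of different shares of clusters here too. Of the 172 EGFP-high cells 69 were in cluster 4 and 77 in cluster 7, against 1096 and 196 of the 1536 EGFP-low cells. The part of this in the class ratios was not tested. Within cluster 4 (69 EGFP-high, 1096 EGFP-low cells) C3 stood at −1.36, where 0.163% of all genes were lower, while C1rb was 310.5 against 182 CPM (0.77, interval 0.67 to 0.88). In cluster 7 (77 and 196 cells) C3 was 1.53 against 29.7 CPM (−4.28) and Clu 4179.8 against 12283 CPM (−1.56), where 2.53% of all genes were lower. Both in the class and in cluster 7 C3 reached 10 CPM in EGFP-low cells alone. C3 was seen in 46 of the 277 cluster 7 cells of set 1, and the highest 28 cells held 89.8% of its UMIs. Thinned to 3000 UMIs, with the EGFP split redrawn from the thinned counts, C3 in the proximal luminal-like class stood at −0.57. Depth and the redrawn split cannot be told apart in that value. Set 2 had 36 EGFP-low proximal luminal-like cells, too few to compare. In basal-like cells of set 1 (510 EGFP-high, 1096 EGFP-low) C1ra was 12.2 against 5.39 CPM (1.17, interval 0.72 to 1.63), the 1 member of 3 called, where 2.57% of all genes were lower and 2.39% higher. C1rb was under 10 CPM on both sides there, at 8.95 against 3.91 CPM. Cd55 stood at −0.38 and Clu at 0.06. Serping1 was 70.1 against 27.1 CPM in the same cells. In basal-like cells of set 2 (155 and 199 cells) Clu was the member that passed the level filter, at 479 against 379 CPM, and Serping1 was 3.97 against 13.0 CPM, opposite to set 1.

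Set 2 was last set beside set 1 for each class, with the contrast in luminal-like cells being the one that brought C1s2 and C1rb into the list. In luminal-like cells all 5 members that passed the filter were lower in set 2, where 17.2% of all genes were lower and 9.89% higher and the median over all genes was −0.18. They were Cd55 (−3.55), C1s2 (−2.91), Clu (−2.89), C1rb (−2.21) and C1ra (−2.16). Cd55 and C1ra reached 10 CPM in set 1 alone, so the filter itself leaned to lower values in set 2. The other 4 members lay under 10 CPM in both sets. With no level filter 6 of 9 members were lower and 1 higher, where 24.1% of all genes were lower and 14.8% higher. In proximal luminal-like cells 4 of 5 were lower, where 6.20% of all genes were lower and 7.57% higher. They were C3 (−2.61), C1s2 (−2.55), C1rb (−1.99) and Cd55 (−1.90), and Clu stood at −0.27. C3 and C1s2 reached 10 CPM there in set 1 alone. With no level filter 4 of 9 members were lower and 3 higher, where 8.21% of all genes were lower and 16.4% higher. In fibroblast-like cells 5 of 9 were lower, where 7.31% were lower and 7.78% higher. They were C1s2 (−5.03, interval −6.93 to −3.63, from 4 UMIs in set 2), Cfb (−2.83), C1rb (−2.51), Clu (−2.42, at levels not read as expression in this class) and C4b (−1.07), while C1ra (−0.80), C3 (−0.36), C1s1 (0.28) and Cd55 (0.29) stayed within 2-fold. In fibroblast-like cells C1s2 and Cfb reached 10 CPM in set 1 alone. With no level filter 5 of 9 members were lower there and 0 higher, where 9.87% of all genes were lower and 11.5% higher. Cd59a was higher in set 2 in all 3 classes, with 328 against 4.47 CPM in luminal-like cells. Of the rest of the list in proximal luminal-like cells, Serping1 (1.58) was higher and C2 (−1.48) and C4bp (−1.36), whose product helps break down C4b, were lower in set 2. In fibroblast-like cells Cfi (2.82), which encodes the protease factor I, was higher and C7 (−3.45), a part of the pore, and C2 (−1.32) were lower.

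Within single clusters the contrast was not the same everywhere. Within cluster 5 C1rb stood at 0.15 (0.12 to 0.19) and C1s2 at −0.21 (−0.27 to −0.15), both within 2-fold. Cd55 (−1.39) and Clu (−4.10) were lower in set 2 within that cluster too, where 7.51% of all genes were lower. Within cluster 4 C1rb (−1.87), C1s2 (−2.47), Cd55 (−3.00) and C3 (−5.27, interval −8.32 to −3.42, from 2 UMIs in set 2) were lower, where 13.7% of all genes were lower, and within cluster 6 C1rb (3.52 against 31.4 CPM, −3.16), C1s2 (−2.51) and Clu (−1.92) were, where 8.65% of all genes were lower. Within cluster 7 C3 (−1.56) was lower, where 3.79% of all genes were, while C1rb stood at −0.44 (−0.99 to 0.08) and Clu at 0.38. Within cluster 1 C1rb went the other way, at 92.8 against 22.4 CPM (2.05, interval 1.85 to 2.26), where 10.6% of all genes were higher, and C1s2 stood at 0.65. Cd55 (−2.98) was lower there, as were 13.6% of all genes. Cell depth differed between the sets within classes, with medians of 15727 against 28661 UMIs in luminal-like cells and 4519 against 7331 in fibroblast-like cells, and its part in these differences was not tested.

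**Figure D5:**
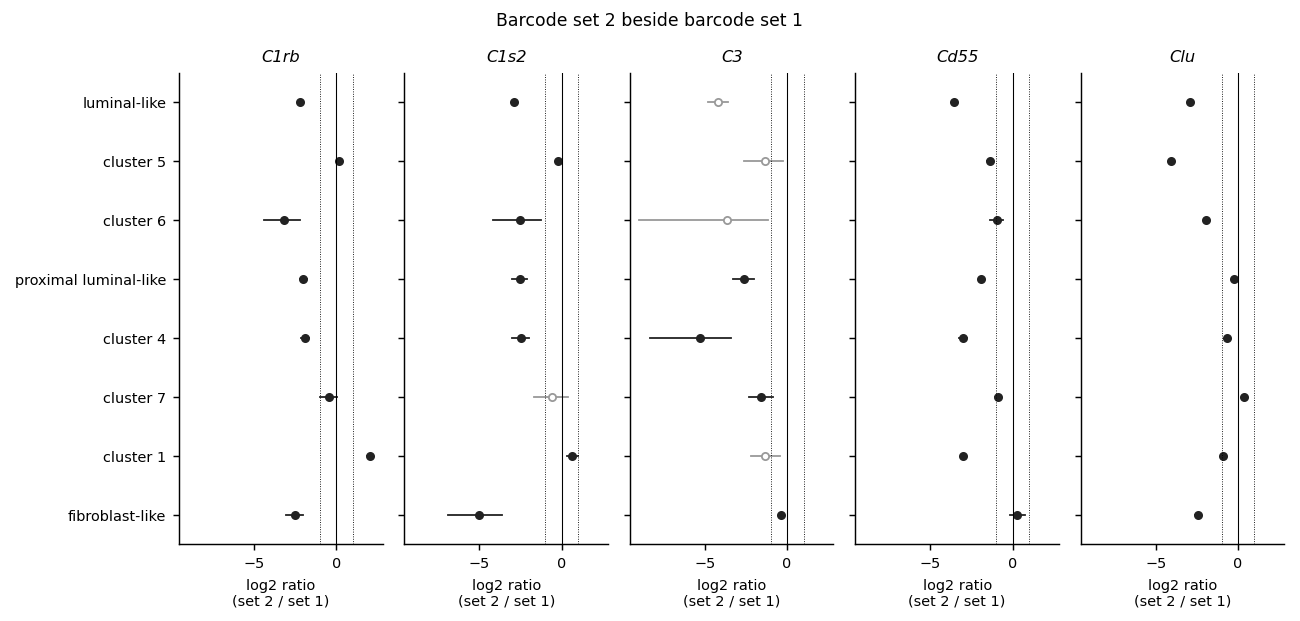
Log2 ratio of CPM in barcode set 2 over barcode set 1 for C1rb, C1s2, C3, Cd55 and Clu, by class and within single epithelial clusters, with conditional binomial 95% intervals. Dotted lines mark 2-fold, and open grey points lie under 10 CPM on both sides. C1rb and C1s2 stand near −2 to −3 in luminal-like cells and near 0 within cluster 5.

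The genes whose levels over 20 groups of class and set were most like those of C1s2, by Pearson's r of log2(CPM + 10) and leaving out complement genes, were D630045J12Rik (0.877), Fut9 (0.874) and Spdef (0.845). For C3 they were Chil1 (0.961), Adam11 (0.954) and Cacna1d (0.934). Groups of a set share a library, so the 20 points are not independent.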

How the data were processed

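The deposited table holds the authors' natural log values, ln(1 + 10000 × UMIs / total UMIs of the cell), made with Cell Ranger 3.1.0 on mm10 with the mGFP and hARtg sequences added and a limit on mitochondrial reads. Whole UMIs were recovered for every value within a tolerance of 0.001. Cells with a Scrublet score of 0.25 or more (scanpy 1.11.5) were left out: 155 in set 1 and 175 in set 2, since the automatic limit called 0. Cells were clustered with Seurat 5.3.0 (20 integration dimensions, 30 principal components, 2000 features without the complement genes, resolution 0.5). The rule that named clusters from fixed markers was settled after the clusters were seen. UMIs were summed per class and set and given as CPM with exact Poisson 95% intervals. Shares carry Clopper-Pearson intervals and ratios conditional binomial ones. Groups of 50 cells or more were measured. The floor was 3 UMIs, and thinning was to 3000 UMIs per cell. Members and lists were chosen with earlier results of these data known. The named genes were the 9 members, the fixed list's genes past 2-fold, and the 3 genes most like C1s2 and C3. Of the 57 list genes 9 had no row in the table. With 1 library per set no test across samples could be made. Alternatives changed the doublet filter, integration, resolution, EGFP split, scaling, cell weights, level filter and depth. Gene positions and promoter windows came from RefSeq (GRCm38.p6). Some genes that met the rule for named genes are not reported here.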

Additional observations from a re-analysis of the deposited data

Results flagged for a closer look

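For 6 pairs of member and cell group the EGFP-high over EGFP-low ratio had opposite signs in the 2 barcode sets, with both intervals excluding 0. At most 4 members could be compared in both sets in luminal-like cells, 5 in cluster 5, 2 in cluster 6 and 1 in basal-like cells. No share over all genes was set beside the 6, so they are not read as a result about the members. The difference was not tested, since each set is 1 library. The sets were also split at unlike EGFP levels. EGFP-high began at 288 CPM in set 1 and 4081 CPM in set 2, and EGFP-low ended at 144 and 2041 CPM. In cluster 5 the log2 ratio of C1rb was 0.27 in set 1 and −0.34 in set 2 (difference −0.61), that of C1s2 was 0.16 and −0.73 (difference −0.89), and that of Clu was −0.66 and 0.88 (difference 1.55). In cluster 6 Cd55 stood at −0.28 and 0.84 (difference 1.12) and Clu at −0.17 and 0.67 (difference 0.84). The Cd55 value of set 2 rested on few cells. Cluster 6 of set 2 held 60 Cd55 UMIs in 19 of 107 cells, 28 of them in a single cell. In the EGFP split of that cluster and set, 14.9% of all genes were higher by 2-fold and 5.69% lower. In luminal-like cells as a whole Clu stood at −0.85 and 0.79 (difference 1.64). In each of these 3 groups Clu was lower in EGFP-high cells of set 1 and higher in those of set 2. The groups were picked for opposite signs, and clusters 5 and 6 are part of the luminal-like class. Basal-like cells were compared for Clu in both sets and were not flagged.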

How the results depend on the processing

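Of 170 alternatives to the main values 36 moved, and a reversal was not looked for among them. A single ratio counted as reversed only if it was a 2-fold call in the main setting and changed sign. Of 271 alternatives to single ratios 96 moved and 3 reversed. The 3 were C1rb (0.072), C1s2 (0.071) and Cd55 (0.15) in EGFP-high against EGFP-low luminal-like cells of set 1 without integration. The cause was not tested.

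The luminal-like share was 11.8% of set 1 and 63.7% of set 2 without integration, 59.8% of set 2 with doublets kept and 67.5% of set 2 at resolution 1. The proximal luminal-like share was 38.6% of set 1 and 1.65% of set 2 without integration, and 4.07% of set 2 with doublets kept. C1rb in its highest luminal cluster was 1236 CPM with doublets kept, 1607 without integration, 1308 with every cell weighing the same and 1448 with another scaling in set 1, and 1352, 1543 and, with another scaling, 1581 in set 2. C1s2 was 474, 624, 515 and 555 CPM in set 1, and 395, 459 and, with another scaling, 471 in set 2. Without integration that cluster held 376 and 239 cells, of which 368 and 237 were cells of cluster 5.

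Members lower in EGFP-high proximal luminal-like cells of set 1 numbered 2 with doublets kept (0.698% of all genes compared under that setting), 5 without integration (3.33%), 2 with the transgene split (1.54%) and 0 after thinning (2.08%). In luminal-like cells of set 1 they numbered 0 without integration (0.295%) and 0 after thinning (4.41%). Thinning also redrew the EGFP split from the thinned counts, on few EGFP UMIs per cell, so depth and split cannot be told apart there. Another scaling gave 2 higher in basal-like cells of set 1 (2.56%) and 1 lower in those of set 2 (2.73%). With no level filter 7 were lower in luminal-like cells of set 2 (23.5%), 1 lower (7.35%) and 2 higher (6.82%) in basal-like cells of set 1, 3 lower in those of set 2 (5.94%) and 2 higher in proximal luminal-like cells of set 1 (6.59%). Between sets it gave 1 higher in luminal-like (14.8%) and 3 in proximal luminal-like cells (16.4%). The split at 5 EGFP UMIs could not be made for luminal-like and basal-like cells of set 2. No paired analysis was possible because the labels give no replicate numbers and each set is 1 library.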
